A study of Mus musculus with 9 samples.

Results

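Cell cycle and DNA replication transcripts were followed in mouse bone marrow-derived macrophages. The set holds 40 named genes, grouped by their roles in cell division, and 32 of them were among the 12204 genes of the deposited table. By role, 13 of 14 genes of the G1 phase and of the step from G1 into S phase were listed, 12 of 13 replication genes, and 7 of 13 mitosis genes. The 8 genes outside the table were Ccne2, Rrm2, Ccna2, Ccnb1, Ccnb2, Aurkb, Bub1 and Cdc20, so no mitotic cyclin of the set was analysed here.

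The macrophages came from marrow of C57/Bl6J mice, matured for 6 days in medium with 20% supernatant from L929 cells, a fibroblast line whose supernatant supplies the growth factor M-CSF. There were 3 groups of 3 libraries. Cells were left untreated, were given 10 ng/ml LPS, a bacterial outer membrane lipid sensed by TLR4, during 4 h, or received 50 µM BMS303141, an inhibitor of ATP-citrate lyase, 1 h before the same LPS dose. All groups were wild type as far as the labels say; none received the inhibitor without LPS, and no vehicle is named. Whether replicates came from different mice or dishes is not labelled, so each p-value reflects library-to-library spread, possibly technical.

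A cell that is told to divide makes D-type cyclins, which with the kinases CDK4 and CDK6 phosphorylate the retinoblastoma protein. This frees E2F factors to switch on genes for S phase. MCM proteins, loaded on DNA by CDT1 and held in check by geminin, form the replicative helicase, while PCNA and nucleotide enzymes serve DNA synthesis. Cyclin B with CDK1, Aurora and Polo kinases and the spindle checkpoint then carry the cell through mitosis. Marrow-derived macrophages proliferate under M-CSF, and activation by LPS is known to arrest that growth.

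Values are log2 CPM, reads scaled to a common library total and put on a log2 scale. As estimated from the spacing of the values, untreated libraries held about 3.33 to 5.37 M reads, LPS libraries 1.73 to 3.03 M and inhibitor libraries 3.50 to 3.68 M. Every LPS library was thus shallower than every other library, and the part of depth in the differences with LPS was not tested. LPS replicate 1 was the shallowest, with 348 genes at its lowest value against 66 to 151 in the others. Values without it are given beside the calls and directions that it changed. Of the 10 macrophage markers all were listed, and their summed level was 8996 to 9554 CPM in untreated, 4450 to 5341 CPM in LPS and 5250 to 5340 CPM in inhibitor libraries, led by Lyz2, with 7 markers called lower and 2 higher with LPS. Of 8 neutrophil markers 2 were listed (S100a8 leading), with sums of 7.81 to 29.6 CPM in untreated, 33.9 to 60.9 CPM in LPS and 172 to 263.8 CPM in inhibitor libraries. The other marker, S100a9, averaged 0.82, 0.39 and 0.87 log2 CPM in these groups and was not called in any comparison, while S100a8 averaged 3.30, 5.46 and 7.75. The lymphocyte, dendritic cell and mast cell lists had 1 listed gene each (Lck, Itgax and Hdc), at 1.27 to 1.59, 3.05 to 4.19 and 2.21 to 2.59 CPM in untreated libraries. With LPS these genes were at 1.56 to 7.53, 13.5 to 22.5 and 106 to 117.5 CPM, and with inhibitor and LPS at 0.651 to 3.17, 4.77 to 5.36 and 60.5 to 77.2 CPM. The 4 listed stromal genes of 7, led by Sparc, summed to 6.09 to 14.0 CPM in untreated, 13.7 to 23.7 CPM in LPS and 6.19 to 13.5 CPM in inhibitor libraries. Of these Pdgfrb was called higher with LPS (5.36, from an untreated mean of -2.65 log2 CPM), while 3, Sparc among them, were not called. Of 5 erythroid genes 0 were listed. The 6 listed mitochondrial transcripts of 9, led by mt-Nd4, summed to 3999 to 5041, 2756 to 3686 and 3675 to 4077 CPM in the 3 groups in the same order. The part of these lists in the results below was not tested. In bulk RNA, fewer dividing cells and less RNA per dividing cell cannot be told apart.

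With LPS, 16 of the 32 listed members fell and 3 rose (limma, adjusted p under 0.05), where 25.4% of all 12196 tested genes fell and 21.5% rose, 47% in all. The 16 include E2f2, which passed the filter for tested genes through untreated libraries alone, so its fall is partly set by that filter. The median log2 difference of the members was -0.97, beside -0.06 over all tested genes. Falls were most frequent among replication genes, with 9 lower and 1 higher of 12, while G1 genes split into 5 lower and 1 higher of 13 and mitosis genes into 2 lower and 1 higher of 7. The 3 that rose were Ccnd2, Tyms and Mki67. Groups did not overlap for 21 members, against 52.6% of all tested genes. Without LPS replicate 1, 15 members were called lower and 5 higher, and the median was -0.97. Of the members, 13 lay at least 10 value steps, roughly 10 reads, above the lowest value in every library, and of these 6 fell and 2 rose. That is near the 56.9% called among the 7915 genes left by a filter of 10 CPM.

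**Figure D1:**
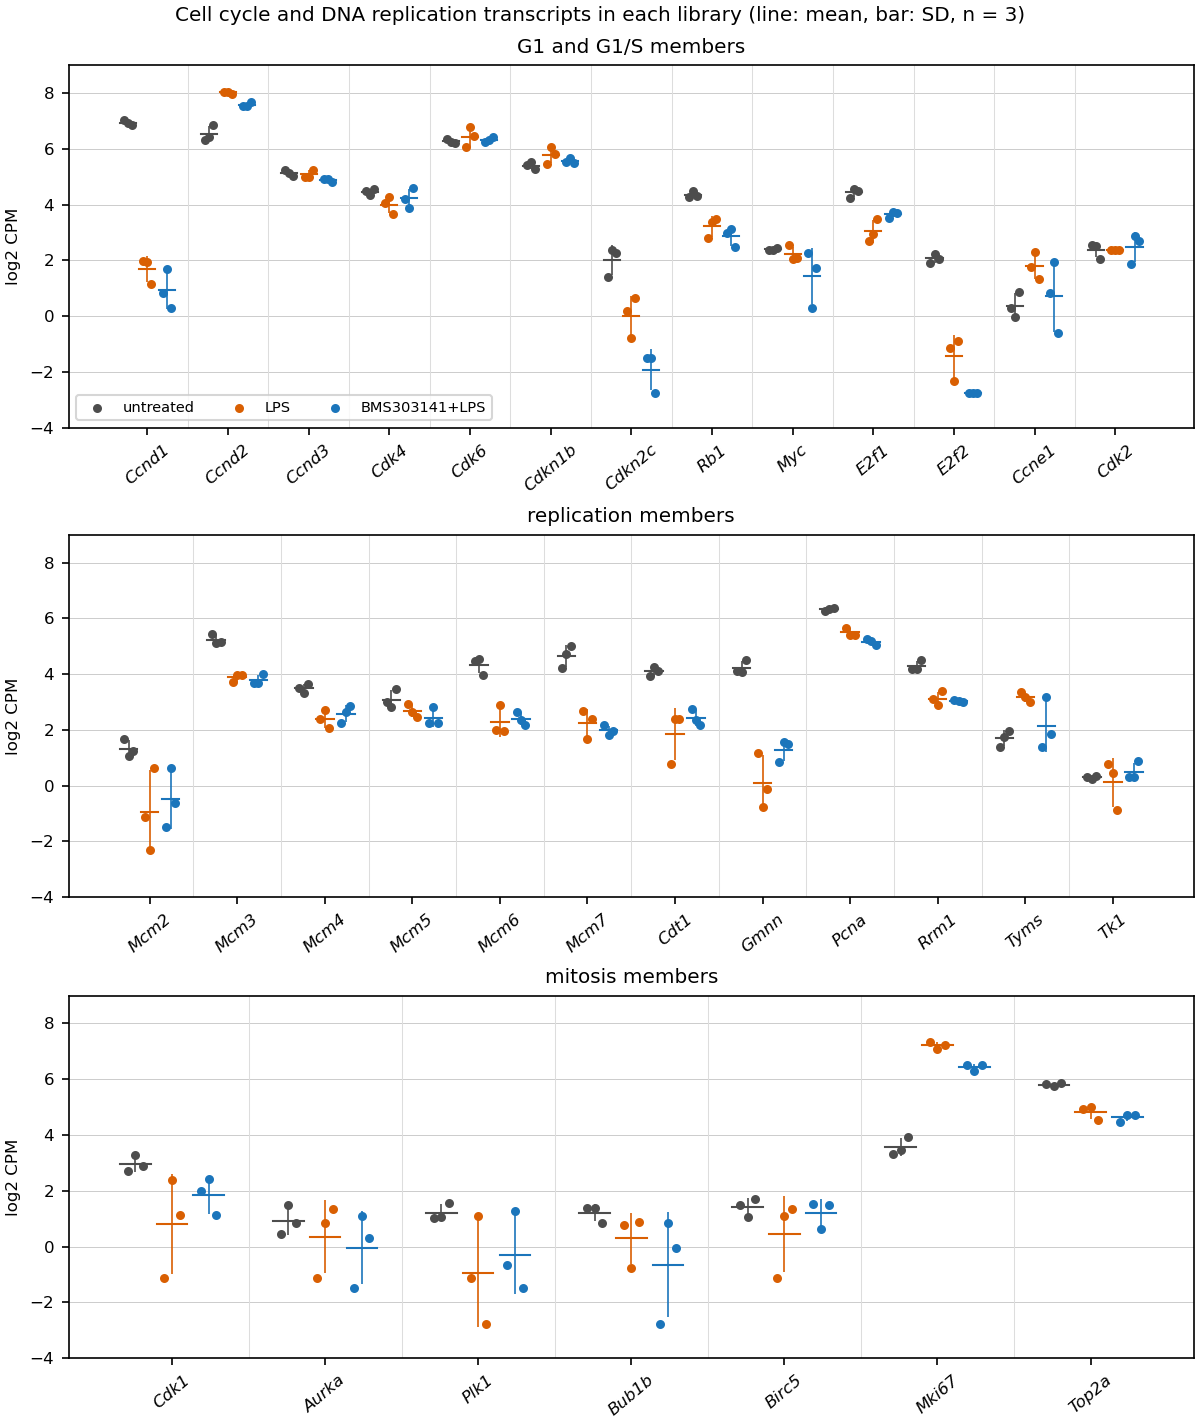
Level of each listed member (x axis, by role) in log2 CPM (y axis) in each library, with untreated, LPS and BMS303141+LPS libraries as points side by side, the mean as a line and the SD as a bar (n = 3). Ccnd1 drops from about 7 to below 2 in both groups with LPS, while Ccnd2 and Mki67 lie above their untreated values.

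The D-type cyclins went in different directions. Ccnd1, which encodes cyclin D1 (ENSMUSG00000070348, minus strand of chromosome 7, GRCm38 positions 144929931 to 144939925), lay at 7.03, 6.94 and 6.85 log2 CPM in untreated libraries and at 1.98, 1.95 and 1.15 with LPS. It lay at 0.83, 1.69 and 0.31 with the inhibitor and LPS. Every untreated library was far above all 6 others, and the fall with LPS was called (log2 difference -5.25, SE 0.33, limma adjusted p = 2.44e-08). The LPS values stood for about 6 to 10 reads and the inhibitor values for 4 to 11, so the size of the fall is imprecise. The opposite strand of Ccnd1 carries LTO1, which shares 818 bases of exon with it and was at -0.55 (SE 0.22, adjusted p = 0.0598, limma).

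Ccnd2, which encodes cyclin D2 (ENSMUSG00000000184, chromosome 6, 127125162 to 127152193, minus strand), rose over the same interval. It was at 6.33, 6.43 and 6.87 log2 CPM untreated, 8.06, 8.05 and 7.98 with LPS, and 7.54, 7.54 and 7.67 with inhibitor and LPS. The 3 groups did not overlap, with the inhibitor libraries between the other two. The rise with LPS was 2.80-fold (1.49, SE 0.13, adjusted p = 9.26e-07, limma). The inhibitor difference from LPS alone was -0.45 (95% interval -0.74 to -0.16), and was not called (limma, adjusted p = 0.121), although it was with weights per sample, with the 2 groups fitted alone and without untreated replicate 3. Ccnd3, the third D-type cyclin, lay at 5.24, 5.12 and 5.04 untreated, 4.99, 5.01 and 5.25 with LPS and 4.92, 4.91 and 4.81 with the inhibitor. Its LPS difference of -0.05 (95% interval -0.36 to 0.26) was not called.

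The kinases that D-type cyclins activate were not called, though untreated and LPS libraries did not overlap for Cdk4, which was called lower with weights per sample (-0.60, adjusted p = 0.0113, limma). Cdk4 was at 4.47 ± 0.11 log2 CPM untreated and 4.00 ± 0.30 with LPS (SD, n = 3), a difference of -0.46 (95% interval -0.92 to -0.00), and Cdk6 was at 6.27 ± 0.07 and 6.43 ± 0.35, a difference of 0.16 (95% interval -0.18 to 0.50). Exons of Cdk4 and Ccnd3 overlap Tspan31 and Bysl on the opposite strand, at 0.36 (not called) and 0.92 (called higher) with LPS. Without LPS replicate 1, where Cdk6 was lowest, the Cdk6 difference was 0.34 and passed (adjusted p = 0.0397, limma).

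Among genes that hold the cell in G1, the outcomes again differed. Rb1, the retinoblastoma gene, fell from 4.28, 4.47 and 4.32 to 2.80, 3.37 and 3.50 log2 CPM (log2 difference -1.14, SE 0.24, adjusted p = 0.00177, limma), and lay at 3.00, 3.13 and 2.49 with the inhibitor. Exons of Rb1 overlap those of Rcbtb2 and Lpar6 on the opposite strand by up to 383 and 209 bases. These neighbours differed by -3.47 and -5.74, both called lower, and their part in the Rb1 value was not tested. Cdkn2c, an inhibitor of CDK4 and CDK6, fell from 1.39, 2.37 and 2.26 to 0.18, -0.78 and 0.64 log2 CPM (-1.99, SE 0.64, adjusted p = 0.0210, limma). Those LPS values stand for 1 to 4 reads, and the call ended without untreated replicate 2 or 3 or LPS replicate 2 (adjusted p up to 0.0928). Cdkn1b, which blocks CDK2, was at 5.40 ± 0.13 untreated and 5.78 ± 0.30 with LPS (SD, n = 3; 0.38, 95% interval 0.04 to 0.73, adjusted p = 0.0640, limma). Without LPS replicate 1 it was at 0.54 and was called higher (adjusted p = 0.00637, limma), as it also was with centring on ribosomal protein genes and with weights per sample.

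Of the factors that start S phase, E2f1 and E2f2 fell, while E2f3, an E2F activator outside the set, rose by 0.57 (SE 0.15, adjusted p = 0.00660, limma). E2f1 was at 4.24, 4.57 and 4.51 log2 CPM untreated, 2.68, 2.94 and 3.50 with LPS and 3.52, 3.73 and 3.71 with inhibitor and LPS. The untreated libraries were highest and the groups did not overlap; the fall with LPS was -1.40 (SE 0.23, adjusted p = 0.000198, limma) and the inhibitor difference of 0.62 (95% interval 0.13 to 1.10) was not called. E2f2 was at 1.92, 2.22 and 2.07 untreated, where it held 14 to 20 reads. With LPS it was at the lowest value in 2 libraries and at about 1 read in the third (called lower, adjusted p = 0.00139, limma), and with the inhibitor it was at the lowest value in all 3, so no fold is given. It passed the filter through untreated libraries alone, so its difference is partly set by that filter.

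Other genes of this step stayed within the spread or failed the test. Ccne1, the cyclin E1 gene, was at 0.37 ± 0.45 untreated, 1.80 ± 0.48 with LPS and 0.72 ± 1.28 log2 CPM with the inhibitor (SD, n = 3). Untreated and LPS libraries did not overlap, but the difference of 1.43 was not called (adjusted p = 0.0644, limma) in the fit over all groups, and was with weights per sample, with these groups fitted alone and without inhibitor replicate 2 or 3. Cdk2, the partner of cyclin E, differed by 0.01 (95% interval -0.65 to 0.67). Myc, a growth-promoting transcription factor, was at 2.40 ± 0.05 untreated and 2.23 ± 0.27 with LPS (SD, n = 3), a difference of -0.17 (95% interval -1.10 to 0.75).

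**Figure D2:**
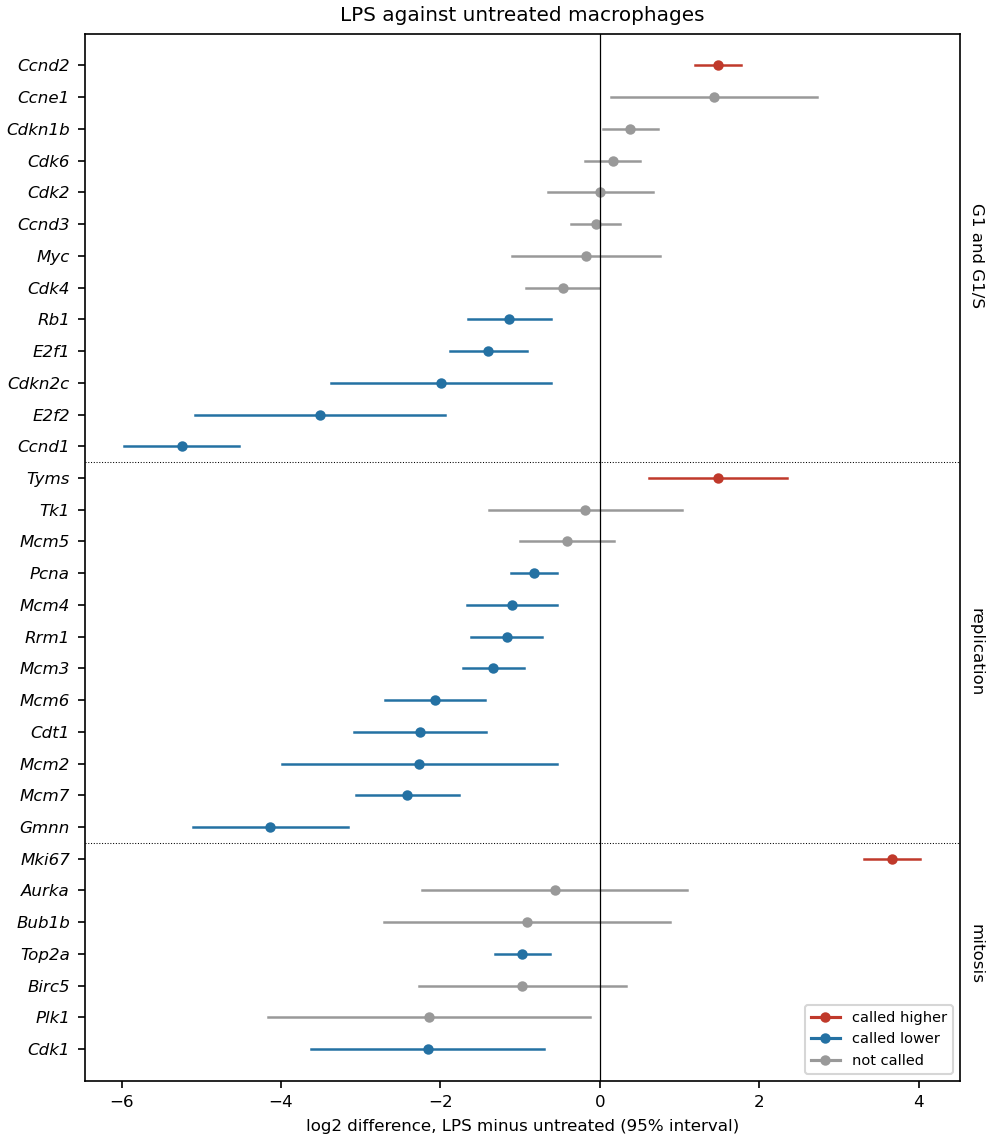
Log2 difference of LPS minus untreated (x axis) for each listed member (y axis, grouped by role and sorted within each role), with the 95% interval of the limma model as a line, red for called higher, blue for called lower and grey for not called. Mki67 lies at 3.67, apart from the other mitosis genes, and Ccnd1 at -5.25.

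Promoters of members were read because E2F factors act on replication genes through GC-rich sites and mitosis genes are known to carry CHR elements. RefSeq promoters, 250 bases before to 50 after the start in GRCm38.p6, were found for 31 of the 40 members. The E2F letters searched were TTCCCGC or TTGGCGC or else TTCGCGC or TTGCCGC. The CHR letters were TTTGAA, and the CCAAT-box letters were CCAAT. All were searched on both strands. E2F matches on opposite strands can overlap. E2F letters stood in 7 of 11 replication promoters (63.6%), 3 of 9 G1 promoters (33.3%) and 3 of 11 mitosis promoters (27.3%), where 20.0% of 8165 promoters of tested genes and 10.9% of all 27025 held them. CHR letters stood in 8 of 11 mitosis promoters (72.7%) and 1 of 11 replication promoters (9.09%), against 14.2% of tested genes and 20.2% of all. CCAAT letters stood in 23 of 31 member promoters (74.2%), against 42.9% of tested genes and 41.1% of all. Of the 12 members that fell with LPS and had a promoter, 8 held E2F letters (66.7%) and 4 CHR letters (33.3%). E2f2, whose fall is partly set by the filter, is included in each of these counts. Over all 31 member promoters the shares were 41.9% for E2F letters and 32.3% for CHR letters. Of the 2 members that rose with LPS and had a promoter, 1, Mki67, held both kinds. A match is a description of letters, not a shown binding site.

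The promoters of 2 helicase subunits that fell, of Cdk1 and Top2a that fell, and of Mki67 that rose are shown so that their letters can be compared. Capitals mark E2F and CHR letters on either strand. All 5 genes lie on the minus strand, and each sequence reads 5′ to 3′ along its gene. They lie at chr1:20820263-20820562 (Mcm3), chr1:128359656-128359955 (Mcm6), chr10:69352863-69353162 (Cdk1), chr11:99024140-99024439 (Top2a) and chr7:135716330-135716629 (Mki67).
Mcm3: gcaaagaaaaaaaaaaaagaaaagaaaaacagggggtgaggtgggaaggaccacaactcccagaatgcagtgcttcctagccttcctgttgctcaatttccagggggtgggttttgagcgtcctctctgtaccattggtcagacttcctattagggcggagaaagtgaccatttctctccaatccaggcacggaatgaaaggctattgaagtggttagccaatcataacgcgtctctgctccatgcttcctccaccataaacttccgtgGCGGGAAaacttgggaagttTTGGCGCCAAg
Mcm6: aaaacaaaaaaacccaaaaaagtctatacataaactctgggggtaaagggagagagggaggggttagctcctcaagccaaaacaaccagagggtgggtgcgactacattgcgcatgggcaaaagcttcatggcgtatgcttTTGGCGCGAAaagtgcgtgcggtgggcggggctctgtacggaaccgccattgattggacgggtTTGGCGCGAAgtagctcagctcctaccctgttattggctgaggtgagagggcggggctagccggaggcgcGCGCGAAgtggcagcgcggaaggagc
Cdk1: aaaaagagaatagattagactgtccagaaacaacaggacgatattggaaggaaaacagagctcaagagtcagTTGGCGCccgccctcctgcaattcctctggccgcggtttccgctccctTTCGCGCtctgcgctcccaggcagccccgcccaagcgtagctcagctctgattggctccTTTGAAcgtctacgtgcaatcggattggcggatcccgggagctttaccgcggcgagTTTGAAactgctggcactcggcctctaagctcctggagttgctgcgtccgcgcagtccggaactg
Top2a: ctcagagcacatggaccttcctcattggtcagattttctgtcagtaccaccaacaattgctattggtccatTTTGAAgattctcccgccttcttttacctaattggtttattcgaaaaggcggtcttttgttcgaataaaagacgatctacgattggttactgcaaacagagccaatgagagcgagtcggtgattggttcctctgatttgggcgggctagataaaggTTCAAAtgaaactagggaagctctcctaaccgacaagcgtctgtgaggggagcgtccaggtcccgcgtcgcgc
Mki67: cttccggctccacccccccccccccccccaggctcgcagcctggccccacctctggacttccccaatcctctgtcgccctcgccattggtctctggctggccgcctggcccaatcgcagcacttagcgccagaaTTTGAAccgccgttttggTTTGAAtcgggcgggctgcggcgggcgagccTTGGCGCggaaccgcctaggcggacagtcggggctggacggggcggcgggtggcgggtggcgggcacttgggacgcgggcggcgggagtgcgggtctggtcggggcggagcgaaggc
Mcm3 and Mcm6 held E2F letters and no CHR letters, Top2a CHR letters only, and Cdk1 and Mki67 both kinds. Cdk1 and Mki67 thus share these letters and differ in the sign of their change with LPS.

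**Figure D3:**
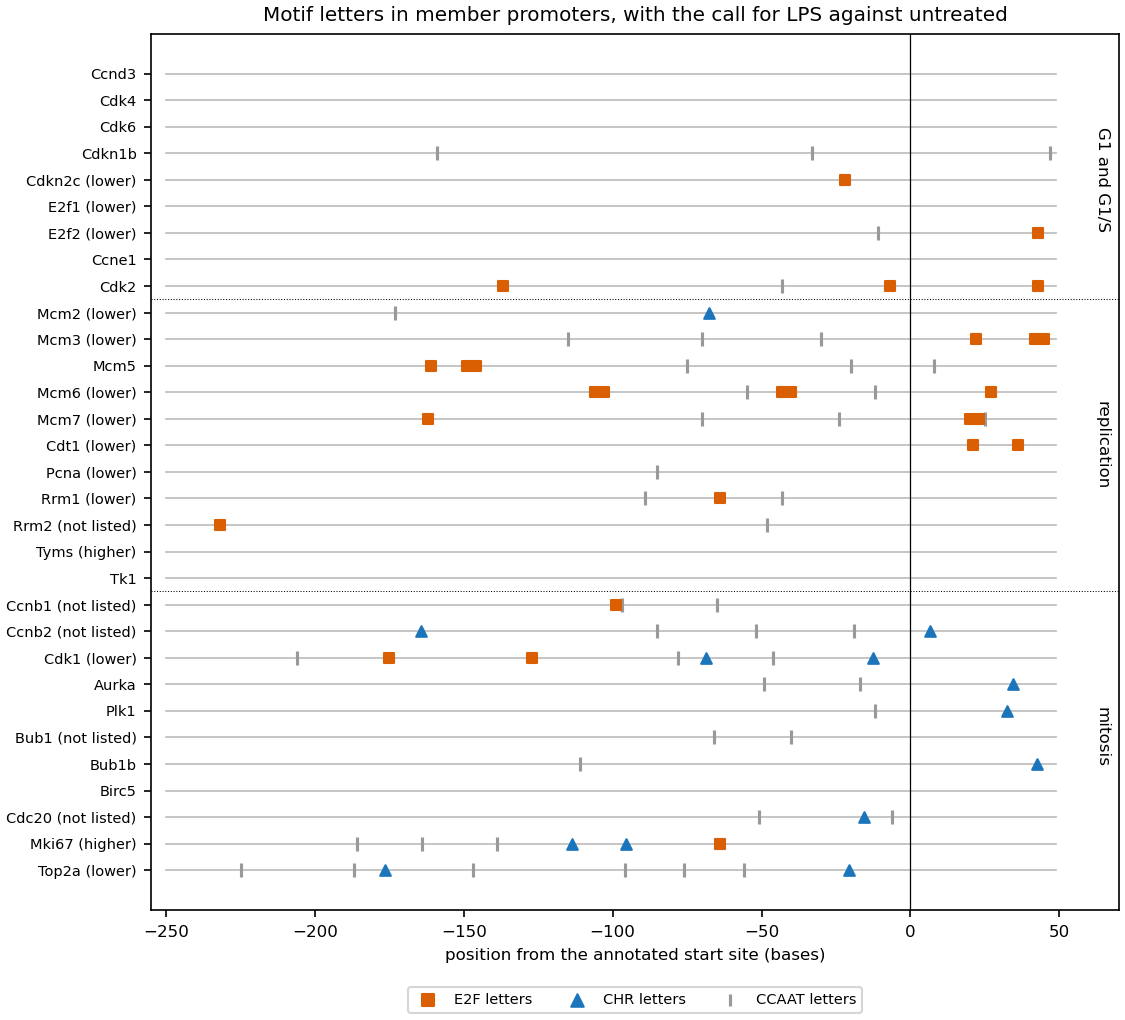
Position of E2F letters (orange squares), CHR letters (blue triangles) and CCAAT letters (grey ticks) from the annotated start site (x axis, bases) in the first promoter window of each member with a RefSeq promoter (y axis, by role), with the call for LPS against untreated after the name. E2F letters lie in 7 of 11 replication promoters and CHR letters in 8 of 11 mitosis promoters.

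Most replication licensing genes fell with LPS. All 8 listed members had a negative difference with LPS and 7 were called lower, with a median of -2.16. Of all tested genes 25.4% were called lower, and their median was -0.06. Without LPS replicate 1, 6 licensing genes were called lower and their median was -1.82. Gmnn, which encodes geminin, the inhibitor of CDT1 (ENSMUSG00000006715, chromosome 13, 24751845 to 24761923), was at 4.12, 4.07 and 4.49 log2 CPM untreated and at 1.17, -0.78 and -0.11 with LPS. That is a fall of 4.13 on the log2 scale (SE 0.45, adjusted p = 5.63e-06, limma), from 62 to 83 reads to 1 to 3. Its partner Cdt1 was at 3.92, 4.27 and 4.11 untreated and at 0.77, 2.39 and 2.38 with LPS (-2.26, SE 0.38, adjusted p = 0.000295, limma), the lowest value being that of LPS replicate 1; without that library the difference was -1.72 and still called.

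The MCM helicase subunits fell by different amounts. Mcm7 went from 4.23, 4.74 and 5.01 to 2.68, 1.66 and 2.38 log2 CPM (-2.42, SE 0.30, adjusted p = 1.90e-05, limma). Exons of Mcm7 overlap those of Ap4m1 on the other strand, which was also called lower (-1.34), and those of Cops6, which was not (0.05). Mcm6 went from 4.47, 4.55 and 3.98 to 1.98, 2.88 and 1.96 (-2.06, SE 0.29, adjusted p = 6.11e-05, limma). In both genes every untreated library lay above every LPS library.

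Mcm3 went from 5.43, 5.11 and 5.14 to 3.71, 3.98 and 3.99 log2 CPM (-1.34, SE 0.18, adjusted p = 3.79e-05, limma). Mcm4 fell by 1.10 on the log2 scale (SE 0.26, adjusted p = 0.00371, limma). Mcm2 was called lower as well (-2.26, SE 0.80, adjusted p = 0.0331, limma), but 2 LPS libraries were at the lowest value. Its call ended without LPS replicate 1 or 2 or any 1 untreated library (adjusted p up to 0.117) and with weights per sample. Mcm5 was at 3.09 ± 0.33 untreated and 2.67 ± 0.23 with LPS (SD, n = 3), and its difference of -0.41 (SE 0.27, adjusted p = 0.237, limma) was not called.

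The clamp and the nucleotide enzymes were less uniform. Pcna, the sliding clamp (ENSMUSG00000027342, chromosome 2, 132249162 to 132253314), was at 6.26, 6.33 and 6.37 log2 CPM untreated, 5.67, 5.40 and 5.42 with LPS and 5.28, 5.19 and 5.05 with inhibitor and LPS. The 3 groups were separate in that order, with a fall of 0.82 on the log2 scale with LPS (SE 0.13, adjusted p = 0.000177, limma). Rrm1, the large subunit of ribonucleotide reductase, went from 4.19, 4.18 and 4.49 to 3.10, 2.88 and 3.38 (-1.17, SE 0.21, adjusted p = 0.000394, limma). Tyms, thymidylate synthase, rose instead, from 1.39, 1.74 and 1.96 to 3.35, 3.17 and 3.02 log2 CPM (1.48, SE 0.40, adjusted p = 0.00799, limma), or from 13 to 14 reads to 17 to 25. With the inhibitor and LPS it spread over 1.38, 3.17 and 1.83. Tk1, thymidine kinase, was at 0.30 ± 0.05 untreated and 0.11 ± 0.87 with LPS (SD, n = 3) and was not called.

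Mitosis genes were mostly near the limit of detection. Mki67, which encodes the Ki-67 protein that coats mitotic chromosomes and is widely used to mark dividing cells (ENSMUSG00000031004, chromosome 7, 135689784 to 135716361), was an exception in level and direction. It was at 3.31, 3.45 and 3.92 log2 CPM untreated, 7.35, 7.10 and 7.24 with LPS, and 6.50, 6.31 and 6.51 with inhibitor and LPS. The 3 groups were fully separate, a 12.7-fold rise with LPS (3.67, SE 0.16, adjusted p = 7.27e-10, limma), and leaving out single libraries gave 3.54 to 3.85. No other annotated gene shared exon sequence with Mki67.

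Top2a, topoisomerase II alpha, which untangles replicated chromosomes, moved the other way, from 5.81, 5.75 and 5.85 to 4.93, 5.02 and 4.55 log2 CPM (-0.97, SE 0.16, adjusted p = 0.000209, limma). Cdk1, the mitotic kinase, went from 2.72, 3.28 and 2.89 to -1.13, 2.39 and 1.15 (-2.16, SE 0.68, adjusted p = 0.0183, limma). Its lowest library was LPS replicate 1, at the lowest value; without that library the difference was -1.19 and still called (adjusted p = 0.0355), while it was not without untreated replicate 2 (adjusted p = 0.0684) or without a mean trend.

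The mitotic kinases Aurka and Plk1, the checkpoint kinase Bub1b and the survivin gene Birc5 had untreated means of 0.93 to 1.41 log2 CPM, or 6 to 15 reads. Their LPS differences ran from -0.57 (Aurka, 95% interval -2.23 to 1.09) to -2.14 (Plk1, 95% interval -4.16 to -0.12), and none passed the test. Without LPS replicate 1, where Aurka, Plk1 and Birc5 were at the lowest value, Aurka was at 0.17 and Birc5 at -0.19, against -0.97 with it, so no shared direction of the 4 genes is read from these values. Plk1 was called lower with the replicate number as a block, with weights per sample and without LPS replicate 2. Exons of Plk1 and Tk1 overlap opposite-strand genes that were outside the table.

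Cell cycle genes outside the 40 were also counted with LPS, where 25.4% of all tested genes were lower and 21.5% higher, 47% in all. In the 2 lists below the share called was near that 47%, while the calls were mostly lower. Of 46 tested other replication genes 20 were lower and 1 higher (19 and 1 without LPS replicate 1). Lig1, a DNA ligase, was at -1.99 (SE 0.16) and Rfc1, a clamp loader subunit, at -1.59 (SE 0.13), while Slbp, which binds histone mRNA, rose by 0.64 (SE 0.20). Of 44 tested other mitosis genes 19 were lower and 2 higher (20 and 1 without LPS replicate 1), with the kinetochore motor Cenpe at -2.32 (SE 0.26) and the condensin subunit Smc2 at -1.49 (SE 0.17). The higher pair was Pkmyt1, a kinase that restrains CDK1 (2.54, SE 0.67), and the anaphase-promoting complex subunit Anapc10 (0.69, SE 0.26). Untreated Pkmyt1 was low, at -1.05 ± 1.16 log2 CPM (SD, n = 3), so its rise is imprecise. List medians were -0.62 and -0.73, beside -0.06 over all tested genes. All these calls are from limma with adjustment over all tested genes.

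Regulators that restrain or drive the cycle were mixed. A list of 19 tested genes outside the set held CDK inhibitors, pocket proteins, E2F factors and partners, and other regulators. Of these 7 rose and 4 fell (5 and 4 without LPS replicate 1), beside 47% called of all tested genes (49.5% without LPS replicate 1). The other regulators were Ccnh, Cdk7, Mnat1, Cdc25a, Skp2, Cks1b and Fbxw7. Among them Cdc25a (0.47) was called higher, and Skp2 (-1.44) and Fbxw7 (-0.54) lower. Cdkn1a, a p53-inducible CDK inhibitor, rose from 6.18 ± 0.20 to 9.28 ± 0.45 log2 CPM (SD, n = 3; 3.10, SE 0.19, adjusted p = 2.00e-08, limma), and E2f5 rose by 1.09. Tfdp2, an E2F partner, fell by 2.24 on the log2 scale and the pocket protein Rbl2 by 0.91. In the MYC-MAX network 2 of 8 rose, Mycl (4.00) and Max (0.74), and 4 fell, including Mxd4 (-3.44) and Mxi1 (-2.04), which compete with MYC for MAX. Untreated Mycl averaged -2.09 log2 CPM, near the lowest value, so its rise is imprecise.

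Among 18 tested genes listed as antiproliferative or quiescence-linked 3 rose, including Gas7 (3.47, SE 0.12) and Btg2 (1.67, SE 0.19). In the same list 8 fell (7 without LPS replicate 1), including Foxo4 (-2.13) and Gas2l3 (-1.07). Whether Gas2l3 restrains division was not tested. Over all tested genes 21.5% rose and 25.4% fell. Of 11 tested genes of the M-CSF receptor and its signals 4 rose and 5 fell, beside the same shares over all tested genes. Csf1r, the M-CSF receptor gene, went from 10.51 ± 0.12 to 9.30 ± 0.23 log2 CPM (SD, n = 3; -1.20, SE 0.12, adjusted p = 1.90e-06, limma), and Spry2, a feedback inhibitor of receptor kinases, fell by 2.46. Csf1, which encodes M-CSF, rose from -0.78 ± 0.80 to 4.12 ± 0.32 log2 CPM (SD, n = 3), and the transcription factor Ets2 rose by 3.26.

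**Figure D4:**
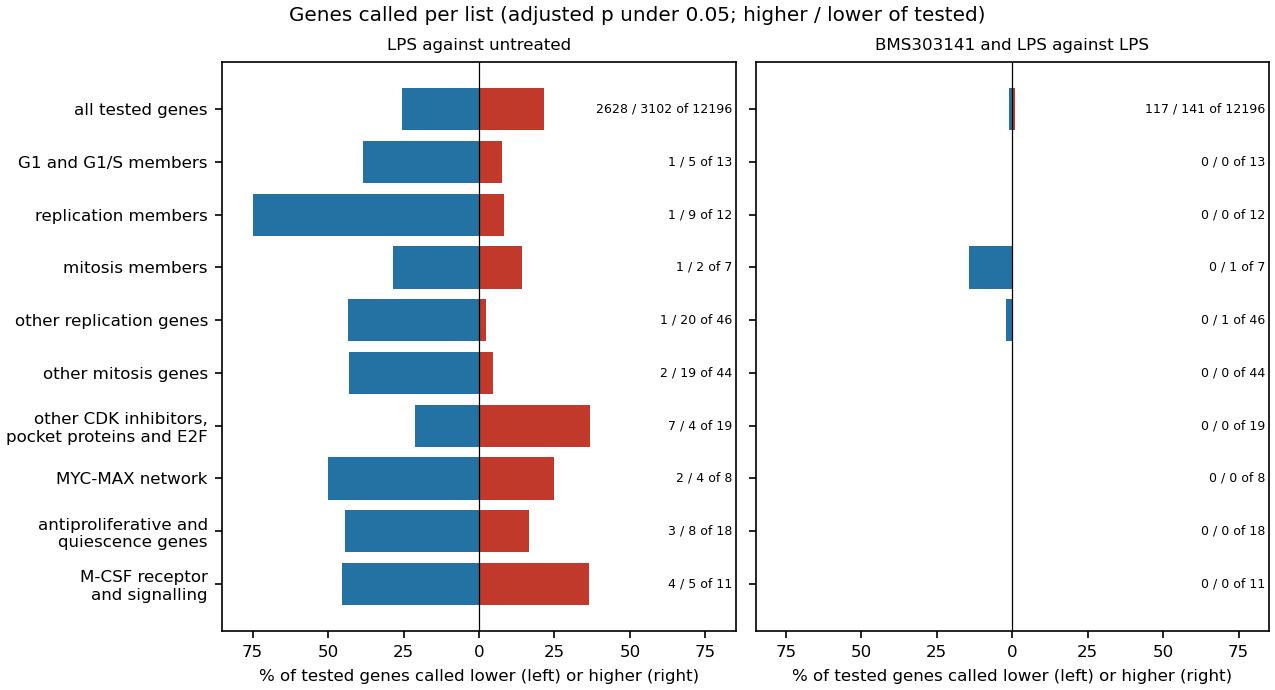
Share of tested genes called higher (red, to the right) or lower (blue, to the left) in percent (x axis) for all tested genes, the 3 role groups of members and the other lists (y axis), for LPS against untreated (left panel) and BMS303141 and LPS against LPS (right panel), with counts at the right. Replication members have 9 of 12 called lower with LPS, and the right panel holds few calls.

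With BMS303141 added to LPS, Mki67 was lower than with LPS alone and no other member was called. Of the 32 members 1 was called lower and 0 higher (limma, adjusted p under 0.05), where 1.16% of tested genes were lower and 0.959% higher, 2.12% in all, and 8 members had an unadjusted p under 0.05. The LPS libraries are the same ones set against untreated cells above. The member median was -0.20, beside -0.00 over all tested genes, and groups did not overlap for 7 members, against 21.4% of tested genes. The 8 licensing genes had a median inhibitor difference of 0.15, with 5 above and 3 below 0, and without LPS replicate 1 the median was 0.01. Cdk1 was at 1.04 and without that library at 0.07, Birc5 at 0.77 and -0.01, Mcm6 at 0.12 and -0.03, and Aurka at -0.40 and -1.14, none of them called.

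Mki67 was the member called lower, by 0.79 on the log2 scale (SE 0.16, 95% interval -1.14 to -0.44, adjusted p = 0.0217, limma), a 1.73-fold difference. All 3 inhibitor libraries lay below all 3 LPS libraries and above all untreated ones. The difference stayed between -0.85 and -0.72 when 1 library was left out. The call ended without LPS replicate 3 or any 1 inhibitor library (adjusted p up to 0.107), with centring on ribosomal protein genes (adjusted p = 0.0592) and with no mean trend in the variance (adjusted p = 0.0988).

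Several uncalled members are given by value. Gmnn was at 0.83, 1.56 and 1.48 log2 CPM with the inhibitor against 1.17, -0.78 and -0.11 with LPS (1.19, 95% interval 0.23 to 2.16, adjusted p = 0.231, limma). The groups overlapped through LPS replicate 1; without that library the difference was 1.73 and was called (adjusted p = 0.0267), as it also was with weights per sample (1.41, adjusted p = 0.0154). These values stand for 1 to 10 reads.

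Tyms (-1.05, 95% interval -1.91 to -0.19), Ccnd1 (-0.75, -1.46 to -0.03) and Pcna (-0.33, -0.61 to -0.04) had intervals below 0 and were not called (adjusted p = 0.239, 0.314 and 0.267, limma). Without inhibitor replicate 2 Tyms was called lower (adjusted p = 0.0474). Cdkn2c was at -1.50, -1.50 and -2.77 with the inhibitor, about 0 or 1 read each, and its difference of -1.94 was not called (adjusted p = 0.164, limma) except with weights per sample. For Mcm3 the interval was -0.49 to 0.28 and for Top2a -0.54 to 0.14, while for the low mitosis genes Plk1 and Bub1b it spanned -1.39 to 2.65 and -2.74 to 0.84.

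**Figure D5:**
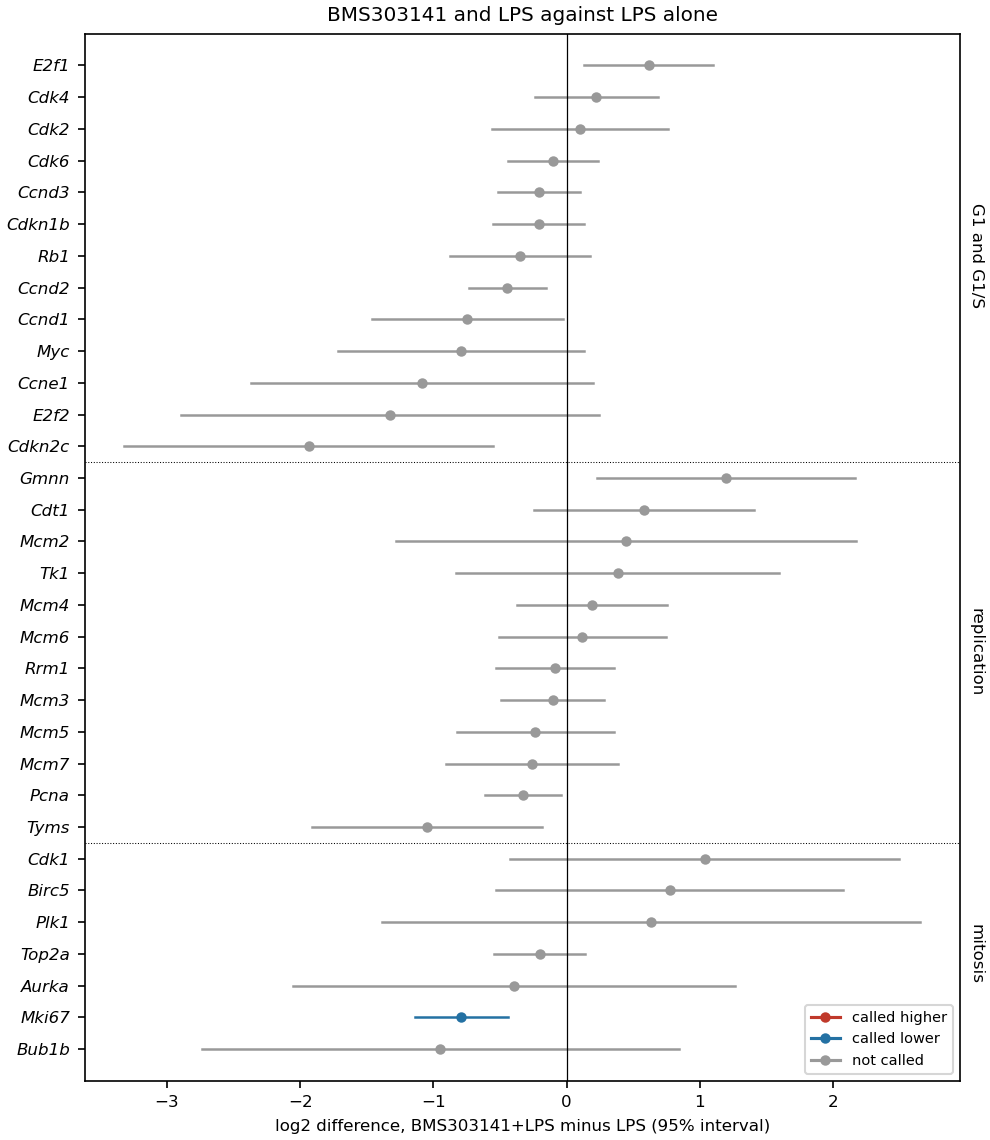
Log2 difference of BMS303141+LPS minus LPS (x axis) for each listed member (y axis, grouped by role and sorted within each role), with the 95% interval of the limma model as a line, blue for called lower and grey for not called. Mki67 at -0.79 is the member called.

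The other cell cycle lists held 46 tested replication, 44 mitosis, 19 regulator, 18 antiproliferative or quiescence-linked, 11 M-CSF and 8 MYC-MAX genes. Of all these, 1 gene was called with the inhibitor, where 2.12% of all tested genes were called. Samhd1, a dNTP hydrolase that lowers the nucleotide supply for DNA synthesis, fell from 7.14 ± 0.07 to 6.57 ± 0.11 log2 CPM (SD, n = 3; -0.57, SE 0.11, adjusted p = 0.0163, limma), after 7.70 ± 0.11 in untreated libraries. Without LPS replicate 1, 1 gene of the list of CDK inhibitors, pocket proteins, E2F factors and partners, and other regulators was also called lower.

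Set against untreated cells, the inhibitor libraries had 14 members lower and 2 higher, where 25.6% of tested genes were lower and 21.5% higher, 47.1% in all, and groups did not overlap for 20 members, against 59.4% of tested genes. The 14 again include E2f2, which passed the filter through untreated libraries alone. This comparison shares its untreated libraries with that of LPS alone and its inhibitor libraries with the one above, so the counts are not independent. By role 8 of 12 replication members, 5 of 13 G1 members and 1 of 7 mitosis members were lower, and the higher members were Ccnd2 (1.04, SE 0.13) and Mki67 (2.88, SE 0.16). Gmnn was at -2.94 (SE 0.45) here and at -4.13 with LPS alone. Tyms was at 0.43 (95% interval -0.43 to 1.30), Cdk1 at -1.12 (-2.58 to 0.34) and Mcm2 at -1.82 (-3.55 to -0.09), and these were not called (adjusted p = 0.397, 0.192 and 0.0782, limma). Cdk1 was called lower here without LPS replicate 1 (adjusted p = 0.0268, limma), with weights per sample and with these 2 groups fitted alone. Mcm2 was called lower with these 2 groups fitted alone and without LPS replicate 2 or inhibitor replicate 2. Bub1b was called lower in 2 of the alternative settings, and Myc and Mcm5 in 1 each. Of the other replication genes 2 were called higher here, Slbp (0.80) and Mcmbp, an MCM-binding protein (0.42, adjusted p = 0.0460, limma). The antiproliferative gene Btg3 (3.68) was called higher and Foxo3, a quiescence-linked factor (-1.22), lower. Untreated Btg3 was low, at -0.67 ± 1.03 log2 CPM (SD, n = 3), so its rise is imprecise.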

How the data were processed

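The libraries were made with the QuantSeq 3′ mRNA kit (forward) from 100 ng of total RNA with 16 PCR cycles, per the labels' protocols, so reads come from transcript 3′ ends. Without roles, the submitters' processing notes list edgeR, limma, MultiQC, featureCounts 1.5.1 and STAR 2.5.2b, with GRCm38 (mm10) as build. How strand was treated, which annotation release served and how genes were filtered is not given in the sources used here. Whether reads of genes that overlap on opposite strands were kept apart is therefore not known here.

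The authors deposited log2 values, entered here as a score since their decimals are commas. From the values they are log2 CPM with quantile normalisation across the 9 libraries: their powers of 2 sum to 987472 to 987498 in each library. A change shared by most transcripts would be removed by that step. Read numbers are ranks of distinct values above a library's lowest, taken as 0 reads, and are approximate; the depth was estimated from ranks 5 to 40. PCR copies are not independent molecules.

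Of 12204 Ensembl identifiers 12181 matched a symbol. Genes reaching 0 log2 CPM in at least 3 libraries were tested (12196, all 32 listed members among them). All groups entered a single linear model in limma 3.58.1 (R 4.3.3), with a trended prior variance and two-sided p-values adjusted by Benjamini-Hochberg over all tested genes. Calls needed an adjusted p under 0.05, and SE is the moderated standard error. The steps were tested on simulated data. Members and lists were chosen with earlier results of these data known. Every listed member is reported, with the 2 called genes of smallest p in each direction from other lists. Outside that rule, E2f3 is named beside E2f1 and E2f2, and the other regulators listed with the CDK inhibitors are named. In 18 alternatives 1 choice was changed at a time. Promoters are RefSeq's (GRCm38.p6); Ccnd1, Ccnd2, Rb1, Myc, Ccne2, Mcm4, Gmnn, Ccna2 and Aurkb had no entry there.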

Additional observations from a re-analysis of the deposited data

How the results depend on the processing

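No member reversed its direction past the threshold in any of the 18 alternatives, and no count for LPS against untreated moved by over 1.5 times except members called higher (main value 3). That count was 5 with weights per sample and 3 to 5 when 1 library was left out. For BMS303141 and LPS against LPS, members called lower (main value 1) were 0 with ribosomal protein centring and with no mean trend, 3 with weights per sample, 2 with only these groups fitted, and 0 to 2 when 1 library was left out; members called higher were 1 with weights per sample and 0 to 1 when 1 library was left out. The share of all tested genes called there (main value 2.12%) was 3.71% with the filter of 10 CPM, which tested 7915 genes and 18 members, 0.812% with no mean trend, 6.67% with weights per sample, and 0.508% to 2.61% when 1 library was left out; the cause was not tested. Same-numbered deviations from group means correlated at -0.297 to 0.165 and differently numbered ones at -0.215 to 0.294. With 3 libraries a group, these values cannot settle whether replicate numbers pair the libraries. With the replicate number as a block, members called with LPS were 17 lower and 3 higher, Plk1 being added; with the inhibitor 1 and 0, and for inhibitor and LPS against untreated 14 and 2. The shares of all tested genes called with the block were 45.4%, 1.71% and 45.6%. Quantile normalisation repeated, median centring and no filter changed no member's call. Under ribosomal protein centring the all-gene median was -0.01 with LPS, against -0.06, and -0.06 with the inhibitor, against -0.00. Calls that some alternative ended were those of Cdkn2c, Mcm2 and Cdk1 with LPS, Mki67 with the inhibitor and Mcm4 in inhibitor libraries against untreated (adjusted p = 0.0566 without inhibitor replicate 1). Depth limits the low members, of which 8 were at a library's lowest value at least once.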

Other observations

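The 5 genes outside the set whose 9 library values were most like those of Ccnd1, among the 6089 more abundant tested genes, were Gtf2i, 1810058I24Rik, Ptpra, Gpr65 and Nrp1. Their Pearson correlations with Ccnd1 were 0.997, 0.996, 0.996, 0.995 and 0.994 over 9 libraries, which is a description since the 3 groups alone set most of it. Gpr65, a proton-sensing receptor, was at 7.25 ± 0.16, 2.91 ± 0.36 and 1.96 ± 0.58 log2 CPM in untreated, LPS and inhibitor libraries (SD, n = 3). Nrp1, neuropilin-1, a co-receptor for VEGF and semaphorins, was at 7.95 ± 0.09, 4.94 ± 0.18 and 4.52 ± 0.10 in the same order. Ptpra, a receptor tyrosine phosphatase, was at 7.88 ± 0.02, 6.21 ± 0.09 and 5.99 ± 0.09.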
